A study of Ovis aries with 26 samples.

Results

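Morulae were compared with 16-cell embryos (16C) of sheep, the step with the largest share of called genes among the 7 between successive stages of a series that runs from the mature oocyte to the expanded blastocyst. Every gene with an FPKM of at least 1 in at least 2 of the 6 libraries of these stages entered the comparison, which took in 12790 of the 30186 genes of the table and 6 of its 26 libraries. All values are in FPKM, a read abundance scaled to the length of the gene (per kilobase) and to the depth of the library (per 1e6 fragments counted on genes). A gene was called, and is said to have risen or fallen in morulae, where its Benjamini-Hochberg adjusted p in limma was under 0.05 and its difference, Morula minus 16C on the log2(FPKM + 1) scale, was at least 1 in size. Differences are given with the standard error (SE) that limma estimated from the libraries. The added constant of 1 makes the difference of a weakly expressed gene smaller than its fold change, and for a gene listed at 0 the difference depends on that constant. A gene that passed the filter only through the morulae was chosen for being higher there, as was one that passed only through the 16C embryos for being higher there. Of the uncalled genes, 569 were below 1 in all 3 16C libraries and 342 in all 3 morulae.

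The embryos (Ovis aries) were made by in vitro fertilization of mature oocytes and grown in embryo culture medium. Embryos of each stage were lysed directly and their poly(A) RNA was copied with a Smart-seq2 protocol, which amplifies full-length cDNA from very little RNA. The Morula group held 3 libraries and the 16C group held 3 libraries of embryos with 16 cells. Early blastocysts (EarlyB, 3 libraries), 8-cell embryos (8C, 4 libraries) and mature metaphase oocytes (MII, 2 libraries) were used as libraries outside the comparison. The labels name no treatment, strain or genetic change in any group, and give neither the cell number of the morulae nor the number of embryos in a library. Nothing in them says that replicates were separate cultures or animals, and the spread that the p-values rest on may therefore be technical.

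The first cleavages of a mammalian embryo run on RNA and protein stored in the oocyte, while its own genome is still largely silent. The embryonic genome then becomes active, stored transcripts are removed, and transcription comes to supply the cells with their own products. At the morula stage the cells flatten against each other, form junctions and acquire an outer polarity, and the outer cells go on to form the trophectoderm, the epithelium that pumps fluid into the blastocyst cavity.

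Reads counted on genes, estimated from the steps between the lowest values of small RNA genes, numbered 27.5, 30.4 and 25.9 in morulae and 34.4, 30.4 and 32.2 in 16C libraries, in units of 1e6. The morulae had 11498, 11521 and 11705 genes with an FPKM of 1 or more, against 9698, 9894 and 9796 genes in 16C embryos, a difference of 1779 in the mean (exact two-sided permutation test, p = 0.10, the smallest that 3 against 3 allows). The deposited values summed to between 586848 and 627084 per morula library, against 442242 to 514805 per 16C library. The library 16C 3 stood apart from its group: across the tested genes, which are not independent of each other, Pearson's r of its log2 values was 0.897 with 16C 1 and 0.909 with 16C 2, while r between that pair was 0.959. With the morulae r was 0.798 to 0.820 for 16C 3, against 0.667 to 0.710 for 16C 1 and 16C 2. Most leading counts are therefore also given without it. Markers of other cell types were summed. The cumulus and granulosa cell markers (21 in the table, 14 tested) held 0.0156% to 0.0284% of FPKM in morulae, against 0.0145% to 0.0429% in 16C embryos, and 1 rose (PTGS2) and 2 fell (VCAN and HSD3B1). FOXL2 and LHCGR were below an FPKM of 1 in every one of the 6 libraries. INHA was at 0.525, 7.39 and 2.02 in 16C embryos, against 0.951 or less in morulae. CYP11A1 was at 0, 4.60 and 2.69 in 16C embryos, against 0.518 or less in morulae, and FSHR reached 1.54 in 16C 3. STAR was at 1.80 to 4.43 in morulae, against 0.115 to 2.29 in 16C embryos. LUM had 17.6, 0.104 and 36.9 FPKM in morulae, against 7.66, 91.4 and 56.6 FPKM in 16C embryos. SERPINE2 was at 38.3 to 52.0 in morulae, against 20.2 to 45.1 in 16C embryos. None of these was called, and the groups overlapped for each. Blood cell markers (13 in the table, 4 tested) held 0.00196% to 0.00397% in morulae, against 0.000168% to 0.000633% in 16C embryos, and 1 rose (PECAM1) and 0 fell. PTPRC was at 0.208 or less, while PECAM1 had 8.66, 6.83 and 4.72 in morulae, against 0.159, 0.0601 and 0 in 16C embryos, and LYZ, which was not called, reached 8.33 in a morula. Sperm markers (14 in the table, 5 tested) held 0.00415% to 0.00539% in morulae, against 0.00172% to 0.00238% in 16C embryos, and 2 rose (PRM2 and CRISP2) and 0 fell. AKAP4 was at 0.0131 or less, while PRM2 was at 8.09 to 9.69 in morulae and listed at 0 in all 16C libraries. ODF2 was at 4.52 to 6.51 in morulae, against 4.44 to 8.16 in 16C embryos, and SPACA1 at 2.77 to 7.26 in morulae, against 0.510 to 7.62 in 16C embryos, both overlapping and uncalled. Of the tested members, 7.14% of cumulus, 25% of blood and 40% of sperm markers rose, against 31.1% of all tested genes. The shares that fell were 14.3%, 0% and 0%, against 17.3% of all tested genes. The blood and sperm shares of summed FPKM were higher in all morulae than in all 16C embryos. Their part in the results was not tested. In whole embryos, a loss of cells of a type and a loss of RNA per cell cannot be told apart.

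Between morulae and 16C embryos 6183 genes (48.3% of those tested) were called. Of the tested genes 3974 rose (31.1%) and 2209 fell (17.3%), while 6607 were not called. Without 16C 3, 4340 rose (33.9%) and 2614 fell (20.4%). All 3 morulae lay above all 3 16C libraries for 4830 genes (37.8%) and below them for 2913 (22.8%). The other steps, each tested over its own libraries and genes, had smaller shares of called genes, 12.1% at 2C against MII, 0.118% at 4C against 2C, 0.113% at 8C against 4C, 6.17% at 16C against 8C, 30% at EarlyB against morula and 21.8% at ExpB, the expanded blastocysts, against EarlyB.

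The balance between rising and falling genes depended on the scaling. On the deposited scale 64.3% of called genes rose. The share was 53.6% after rescaling each library to a sum of 1e6 (3390 rose and 2932 fell), 55.8% when the mitochondrially encoded genes were left out of that sum (3547 and 2811), 55.2% when libraries were scaled by median ratios (3277 and 2662) and 46.0% when their distributions were made equal by quantile normalization (2665 and 3133). The median difference of all tested genes was 0.43 on the deposited scale, and 0.17, 0.23, 0.21 and 0.04 under these scalings in the same order. List medians below are therefore also given relative to that median, and the sign of every relative list median printed was the same under all 4 other scalings.

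**Figure D1:**
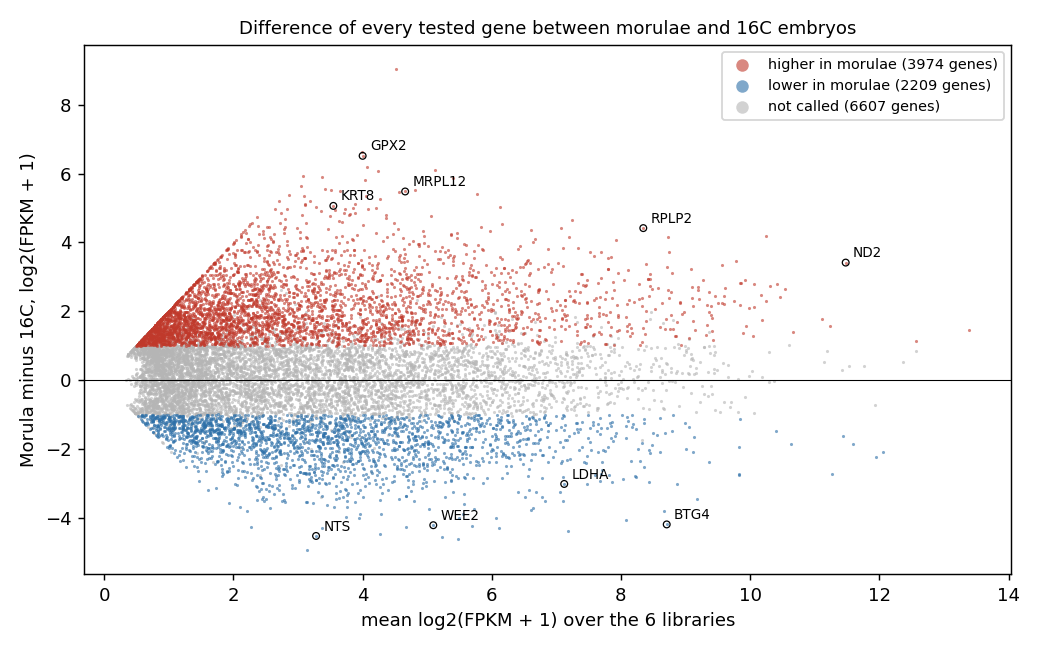
Difference of each of the 12790 tested genes, Morula minus 16C on the log2(FPKM + 1) scale, against its mean log2(FPKM + 1) over the 6 libraries. Red points are the 3974 genes that rose, blue points the 2209 that fell and grey points the 6607 not called, with a few genes described in the text named. Risen and fallen genes were found at every level, with the rising ones reaching larger differences.

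The same direction was common in 7 libraries that had no part in the calls, 3 of EarlyB and 4 of 8C. EarlyB against 8C spans the tested step together with the step before it and the step after it. A shared direction therefore does not place a change at the tested step. Of the 3974 genes that rose, 3247 (81.7%) also rose in EarlyB against 8C and 4 fell. Of the 2209 that fell, 1981 (89.7%) fell in EarlyB against 8C and 8 rose. Over all tested genes 37.3% rose and 26% fell in that comparison. Fallen and risen genes also differed in the MII oocytes: 93.5% of the fallen genes were at an FPKM of at least 1 in both MII libraries, against 41.1% of the risen ones and 61.8% of all genes tested. A further 52.3% of the risen genes were below 1 in both MII libraries. In the 16C embryos 1266 of the risen genes were below 1 in all 3 libraries, and in the morulae 325 of the fallen genes were. Those genes passed the filter only through the stage where they were higher, and they are included in the shares above. How far the MII and the EarlyB against 8C shares rest on them was not tested. Genes that fell held 6.74%, 6.87% and 8.51% of summed FPKM in morulae, against 44.9%, 43.6% and 29.2% in 16C embryos, shares that follow from the choice of the genes.

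The clearest fall was that of the oocyte genes, of which 33 of 38 tested members fell and 0 rose, against 17.3% falling among all genes. Their median difference was -2.44, or -2.86 relative to all genes, and 0 rose and 33 fell without 16C 3. In EarlyB against 8C, 1 rose and 34 fell. The list held 49 genes, 42 of them in the table, and together they made up 0.158%, 0.193% and 0.255% of summed FPKM in morulae, against 2.29%, 2.36% and 1.68% in 16C embryos. Members with an FPKM of at least 1 in fewer than 2 of these 6 libraries were not tested, among them NLRP5, a subcortical complex gene at 1.36 or less.

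BTG4, the adaptor that brings the deadenylase complex to maternal mRNA, stood at 96.4, 79.5 and 118 FPKM in morulae, against 1632, 1920.1 and 1830 FPKM in 16C embryos. The kinase WEE2, which holds oocytes in meiotic arrest, was at 8.64, 6.48 and 5.88 in morulae, against 216, 132 and 111 in 16C embryos. Neither gene had overlapping groups, and the 3 16C libraries were close to each other for BTG4. The difference was -4.20 ± 0.29 (SE, limma adjusted p = 0.00019) for BTG4 and -4.22 ± 0.35 (SE, limma adjusted p = 0.00023) for WEE2, and both also fell in EarlyB against 8C. NPM2, the oocyte nucleoplasmin that remodels sperm chromatin, had 0.599, 3.44 and 3.30 FPKM in morulae, against 45.3, 18.1 and 62.9 FPKM in 16C embryos, a difference of -3.62 ± 0.55. ACCSL, a member of the same list, had 9.90, 14.9 and 16.4 in morulae, against 183, 183 and 212 in 16C embryos, a difference of -3.74 ± 0.31. All morulae were below all 16C libraries for NPM2 and ACCSL, and 16C 3 was the highest of the 6 libraries for both.

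Secreted and structural products of the oocyte fell in parallel. The growth factor GDF9 was at 68.8, 50.6 and 66.4 FPKM in morulae, against 579, 527 and 419 FPKM in 16C embryos, and its relative BMP15 at 53.6, 29.7 and 58.7 in morulae, against 218, 149.7 and 121 in 16C embryos. Of the zona pellucida glycoproteins, which form the coat of the egg, ZP2 was at 85.8, 115 and 146 in morulae, against 871, 1037 and 530.3 in 16C embryos. ZP3 had 10.3, 20.7 and 17.7 FPKM in morulae, against 76.9, 104 and 85.7 FPKM in 16C embryos. No library of one group reached into the other for any of the 4, and 16C 3 was the lowest 16C library for GDF9, BMP15 and ZP2. Their differences were -3.02 ± 0.30 for GDF9, -1.78 ± 0.37 for BMP15, -2.78 ± 0.36 for ZP2 and -2.43 ± 0.34 for ZP3 (limma adjusted p from 0.0003 to 0.0047). The oocyte transcription factor FIGLA was at 0.106, 0.288 and 0 FPKM in morulae, against 6.78, 12.9 and 7.84 FPKM in 16C embryos, and the importin KPNA7, a nuclear import receptor of oocytes and early embryos, at 68.7, 176 and 151 in morulae, against 1139.5, 1280.2 and 622 in 16C embryos. PADI6, a maternal protein of the egg cytoplasm, had 1.72, 2.999 and 1.26 in morulae, against 13.7, 9.86 and 8.18 in 16C embryos. ZAR1, an RNA-binding protein of the oocyte, had 0.268, 0.426 and 0.114 FPKM in morulae, against 3.14, 2.42 and 1.59 FPKM in 16C embryos. Morulae were again below 16C embryos in every library, with FIGLA and ZAR1 below an FPKM of 1 in all morulae, and the 4 genes fell by 3.13, 2.97, 1.97 and 1.39 on the log2 scale.

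**Figure D2:**
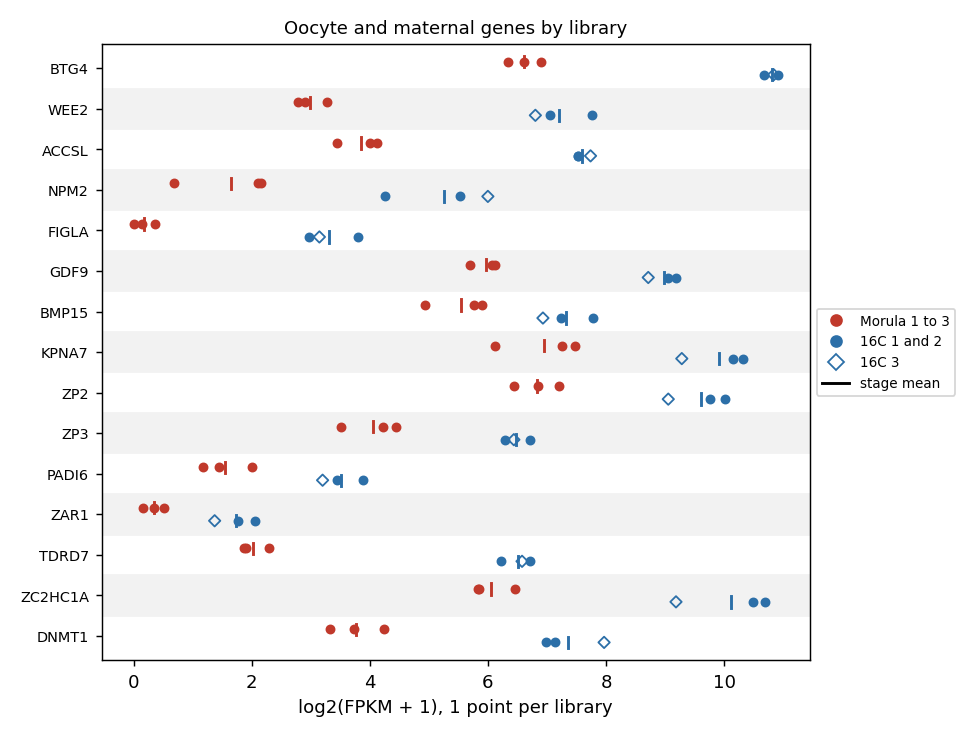
Levels of 15 oocyte and maternal genes in each library, as log2(FPKM + 1), with 3 morulae (red), 16C 1 and 16C 2 (filled blue), 16C 3 (open diamonds) and stage means (bars). The morulae lie left of all 16C libraries for each gene, and 16C 3 is the 16C library nearest to the morulae for 8 of the 15, among them WEE2, KPNA7 and ZC2HC1A.

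Factors that store or degrade maternal RNA moved in both directions. Of this list 18 of 63 tested members fell and 13 rose, or 28.6% and 20.6%, against 17.3% and 31.1% of all genes, with a median of 0.09, which was negative under all 4 other scalings and without 16C 3, or -0.34 relative to all genes. The number that rose was 8 after rescaling to a sum of 1e6 and also without Morula 2. Those that fell included oocyte forms of translation and storage factors. EIF4E1B, an oocyte cap-binding protein, was at 3.13, 2.49 and 2.66 FPKM in morulae, against 36.1, 22.3 and 15.2 FPKM in 16C embryos. PATL2, an RNA-binding repressor of oocytes, had 1.05, 0.928 and 1.03 in morulae, against 15.4, 14.4 and 10.1 in 16C embryos. ZAR1L, a relative of ZAR1, had 3.37, 3.73 and 3.96 in morulae, against 31.1, 26.8 and 23.4 in 16C embryos. For each of them the groups were apart by a wide margin, with differences of -2.68 ± 0.37, -2.81 ± 0.31 and -2.58 ± 0.30. Among those that rose were ZFP36 and ZFP36L2, which promote the decay of AU-rich mRNA. ZFP36 had 8.63, 10.7 and 10.6 FPKM in morulae, against 0.297, 0 and 0.318 FPKM in 16C embryos, and ZFP36L2 had 17.0, 14.7 and 6.22 in morulae, against 1.98, 1.38 and 4.28 in 16C embryos, with differences of 3.19 ± 0.31 and 1.92 ± 0.46. The mRNA-binding protein IGF2BP1 was at 12.3, 9.30 and 7.13 FPKM in morulae, against 0.145, 0.0153 and 2.86 FPKM in 16C embryos and rose by 2.65. PABPC1, the cytoplasmic poly(A)-binding protein, was not called at 204, 225 and 236 FPKM in morulae, against 122, 131 and 106 FPKM in 16C embryos, although every morula lay above every 16C library (difference 0.89 ± 0.28, limma adjusted p = 0.025).

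Genes outside the lists were named by the size of their difference, among called genes with a gene symbol, no overlap and a mean FPKM of at least 20 at the higher stage. Of those that fell, all but NTS and PKIB were at an FPKM of at least 1 in both MII libraries. TDRD7, a Tudor protein of germ granules, was at 2.65, 2.73 and 3.89 FPKM in morulae, against 104, 73.7 and 94.4 FPKM in 16C embryos, and its mean in MII oocytes was 193. The zinc finger protein gene ZC2HC1A had 56.5, 56.0 and 86.4 in morulae, against 1653, 1430.1 and 581 in 16C embryos. Both groups were tight for TDRD7, while 16C 3 was well below the other 16C libraries for ZC2HC1A. Differences were -4.49 ± 0.31 for TDRD7 and -4.08 ± 0.43 for ZC2HC1A. CIART, a repressor of the circadian clock, was at 16.1, 19.4 and 12.4 FPKM in morulae, against 342, 277 and 206 FPKM in 16C embryos. BBS2, a subunit of the BBSome, which serves cilia, was at 10.3, 6.75 and 19.8 in morulae, against 218, 213 and 124 in 16C embryos. MPHOSPH9, a centriole protein, had 10.5, 9.80 and 10.5 in morulae, against 203, 152 and 186 in 16C embryos. These 3 fell by 4.01, 3.89 and 4.000, with no overlap. CROT, a peroxisomal enzyme of fatty acid oxidation, CPB2, a carboxypeptidase, and SMARCA1, a chromatin remodeller of the ISWI family, fell by 3.76, 4.31 and 3.70. KHDC1, a member of a family of similar KH-domain genes whose reads may be shared among copies, fell by 3.78.

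A small part of the fallen genes, 85 of 2209, was below an FPKM of 1 in both MII libraries. The neuropeptide precursor NTS, the gene with the largest fall among those named, was at 3.20, 0 and 0.962 FPKM in morulae, against 40.6, 114 and 20.3 FPKM in 16C embryos. PKIB, an inhibitor of protein kinase A, had 1.61, 1.91 and 6.26 in morulae, against 53.1, 108 and 39.0 in 16C embryos. MYC, a transcription factor of growth and proliferation, had 0.574, 2.44 and 0.574 in morulae, against 13.2, 38.9 and 7.36 in 16C embryos. In all 3 the morulae lay below the 16C embryos, and 16C 2 was the highest library. They fell by 4.53, 4.02 and 3.04 (limma adjusted p = 0.0012, 0.00064 and 0.0033). Mean FPKM in MII oocytes and 8C embryos was 0.286 and 4.15 for NTS, 0.0237 and 0.470 for PKIB, and 0.123 and 1.84 for MYC, so that each was higher in 16C embryos than at either earlier stage.

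Of the rising genes named by the same rule, several encode secreted proteins or enzymes. Genes with no symbol, whose differences reached 9.05, are not described. GPX2, a glutathione peroxidase of epithelia, was at 293, 164 and 73.3 FPKM in morulae, against 0.448, 0.0724 and 2.02 FPKM in 16C embryos. HAMP, which encodes the iron hormone hepcidin, had 121, 96.4 and 23.3 in morulae, against 0, 0 and 0.250 in 16C embryos. SLPI, a secreted inhibitor of proteases, had 128, 179 and 21.4 in morulae, against 1.40, 0 and 0 in 16C embryos. The groups were far apart for all 3, and Morula 3 was the lowest morula for each. Differences were 6.52 ± 0.56 (SE, limma adjusted p = 0.00024), 5.94 ± 0.57 and 5.91 ± 0.74. GKN1, a gastrokine first known from the stomach lining, was at 287, 173 and 137 FPKM in morulae, against 2.21, 0 and 21.3 FPKM in 16C embryos. PAGE4, a cancer/testis gene, had 278, 145 and 92.9 in morulae, against 2.37, 0.397 and 8.54 in 16C embryos. GLDC, the decarboxylase of glycine cleavage, had 152, 123 and 89.8 in morulae, against 0.383, 1.39 and 8.34 in 16C embryos. Morula 3 was again the lowest morula and 16C 3 the highest 16C library, and the differences were 5.52 ± 0.93, 5.46 ± 0.67 and 5.25 ± 0.63. The plasminogen activator PLAU, the scavenger receptor MARCO, the scramblase family gene PLSCR4 and the peptidase NAALAD2 rose by 5.20, 5.11, 5.20 and 5.02. Each of these 10 genes also rose in EarlyB against 8C. For MARCO the mean FPKM was 53.5 at the morula stage, and the later stages were lower, with 6.36 for EarlyB and 1.56 for ExpB.

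Counted by called genes, the rise was broad in the machinery of growth, while some summed shares given below overlapped between the stages. Of the cytosolic ribosomal proteins, 73 of 79 tested members rose and 0 fell, against 31.1% rising among all genes, and 75 rose and 0 fell without 16C 3. The median difference was 2.45, or 2.02 relative to all genes, and in EarlyB against 8C 77 rose and 0 fell. Ribosomal proteins held 12.5%, 13.5% and 11.4% of summed FPKM in morulae, against 3.004%, 2.74% and 5.12% in 16C embryos. RPLP2, an acidic protein of the ribosomal stalk, was at 1359.5, 1494 and 1669 FPKM in morulae, against 46.7, 39.2 and 181 FPKM in 16C embryos, and RPS12, a protein of the small subunit, at 1123, 1044 and 839 in morulae, against 38.3, 42.9 and 123 in 16C embryos. RPL22, of the large subunit, had 244, 284 and 271 in morulae, against 5.34, 9.46 and 25.8 in 16C embryos. RPL38, of the same subunit, had 121, 160.4 and 96.0 in morulae, against 6.68, 2.13 and 23.2 in 16C embryos. For all 4 the morulae were far above the 16C embryos, and 16C 3 was the highest 16C library. The differences were 4.42 ± 0.53 (SE, limma adjusted p = 0.00055) for RPLP2, 4.06 ± 0.45 for RPS12, 4.46 ± 0.49 for RPL22 and 3.89 ± 0.65 for RPL38. RPSA, also a laminin-binding protein, was not called at 800.0, 855 and 1189 FPKM in morulae, against 495, 723 and 415 FPKM in 16C embryos. RPS4X was not called either, at 1081, 756 and 962 in morulae, against 564, 353 and 499 in 16C embryos. All morulae nevertheless lay above all 16C libraries for both. Ribosomal protein genes have many processed copies in mammalian genomes, so reads may be shared among near-identical loci.

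Ribosome biogenesis factors moved less evenly: 47 of 120 tested members rose and 5 fell, 39.2% rising and 4.17% falling, against 31.1% and 17.3% of all genes, with a median of 0.89 (0.46 relative to all genes), and 62 rose and 5 fell without 16C 3. Under the other scalings 34 to 41 rose and 11 to 12 fell. The list held 1.74%, 1.92% and 1.81% of summed FPKM in morulae, against 1.47%, 1.76% and 2.76% in 16C embryos. By this share 16C 3 exceeded every morula, and its list median of 4.77 in log2(FPKM + 1) lay within the morula range of 4.71 to 4.84. MRTO4, a factor of large subunit assembly, was at 51.0, 55.2 and 46.7 FPKM in morulae, against 1.69, 1.38 and 10.1 FPKM in 16C embryos. GNL3L, a nucleolar GTPase, was at 54.9, 62.1 and 73.6 in morulae, against 1.84, 3.06 and 11.5 in 16C embryos. EMG1, a methyltransferase of the small subunit, had 76.6, 141 and 98.2 in morulae, against 5.78, 6.76 and 39.7 in 16C embryos. No overlap was seen for these 3, with 16C 3 nearest to the morulae, and they rose by 3.64, 3.61 and 2.999. NAT10, an acetyltransferase of ribosomal RNA, went the other way with 13.0, 28.6 and 15.7 FPKM in morulae, against 142, 72.4 and 67.4 FPKM in 16C embryos, a fall of 2.23. NMD3, which exports the large subunit, had 77.6, 51.3 and 116 in morulae, against 325, 299 and 188 in 16C embryos and fell by 1.76. NPM1, the abundant nucleolar chaperone, was at 1316, 1404 and 996 FPKM in morulae, against 1357, 1347 and 1140 FPKM in 16C embryos, with overlapping groups and a difference of -0.06 ± 0.29 (SE, limma adjusted p = 0.88).

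Mitochondria were the second large block. Of the mitochondrial ribosomal proteins, 53 of 79 tested members (67.1%) rose and 1 (1.27%) fell, against 31.1% and 17.3% of all genes. Without 16C 3, 60 rose and 1 fell. Over all 6 libraries the median was 1.97, or 1.54 relative to all genes. MRPL12, a protein of the large subunit, was at 134, 168 and 210.2 FPKM in morulae, against 0.440, 2.13 and 10.98 FPKM in 16C embryos. MRPL35 had 767, 529 and 595 in morulae, against 11.1, 16.5 and 114 in 16C embryos, and MRPS24, of the small subunit, 464, 408 and 439 in morulae, against 9.49, 16.8 and 159 in 16C embryos. The groups did not overlap, and 16C 3 was several-fold above the other 16C libraries for each. Differences were 5.48 ± 0.67 (SE, limma adjusted p = 0.00056), 4.43 ± 0.73 and 3.82 ± 0.84. MRPL42, the 1 member that fell, had 364, 254 and 337 FPKM in morulae, against 1257, 895 and 885 FPKM in 16C embryos (difference -1.66 ± 0.31).

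The nuclear-encoded subunits of oxidative phosphorylation rose widely. Of 61 tested members 53 (86.9%) rose and 1 (1.64%) fell, against 31.1% and 17.3% of all genes. These counts were also 53 and 1 without 16C 3. With all libraries the median was 2.63, or 2.20 relative to all genes. Of the 81 genes written, 61 were in the table. ATP5ME, a subunit of ATP synthase, was at 447, 404 and 345 FPKM in morulae, against 10.8, 4.20 and 29.0 FPKM in 16C embryos. ATP5PD, of the same enzyme, was at 841, 758 and 688 in morulae, against 11.3, 15.7 and 132 in 16C embryos. ATP5IF1, the inhibitor protein of that enzyme, had 318, 269 and 263 in morulae, against 8.73, 9.81 and 24.8 in 16C embryos, and NDUFA9, a subunit of complex I, had 174, 193 and 174 in morulae, against 4.80, 7.02 and 17.6 in 16C embryos. Every morula exceeded every 16C library many times over, 16C 3 being the highest 16C library. The 4 rose by 5.02 ± 0.56, 4.66 ± 0.77, 4.35 ± 0.40 and 4.25 ± 0.43 (limma adjusted p from 0.00028 to 0.0017). NDUFV3, a further complex I subunit, fell by 1.22, with 126, 123 and 121 FPKM in morulae, against 318, 285 and 265 FPKM in 16C embryos.

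Transcripts of the mitochondrial genome itself rose as well. Their share of summed FPKM was 9.14%, 7.19% and 7.77% in morulae, against 4.49%, 3.02% and 3.91% in 16C embryos, a difference of 4.22 percentage points (exact two-sided permutation test, p = 0.10, the smallest possible). Of the 13 protein genes 12 were tested, and 9 (75%) rose and 0 fell, against 31.1% and 17.3% of all genes. They had a median of 1.62, or 1.19 relative to all genes. Without 16C 3, 9 rose and 0 fell, and under the other scalings 6 to 8 rose and 0 fell. ND2, a complex I subunit, was at 12141, 8032 and 8286 FPKM in morulae, against 1179, 694 and 813 FPKM in 16C embryos. COX2, a subunit of cytochrome oxidase, had 1436, 1637 and 933 in morulae, against 337, 281 and 382 in 16C embryos, and ND5 had 47.8, 46.1 and 24.3 in morulae, against 13.1, 9.24 and 8.11 in 16C embryos. There was no overlap, and the differences were 3.41 ± 0.33 (SE, limma adjusted p = 0.0003), 1.97 ± 0.32 and 1.82 ± 0.37. CYTB, of complex III, was not called at 3085, 1969.6 and 3217 FPKM in morulae, against 1736, 1345 and 2879 FPKM in 16C embryos, and 16C 3 overlapped with the morulae (limma adjusted p = 0.27). ND4 and COX3 were not called either. The 16C 3 library was the highest 16C library for COX2 and CYTB, but not for ND2 or ND5. The median log2(FPKM + 1) of the tested mitochondrial genes was 9.36 in 16C 3, against 9.18 in 16C 1 and 9.10 in 16C 2.

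**Figure D3:**
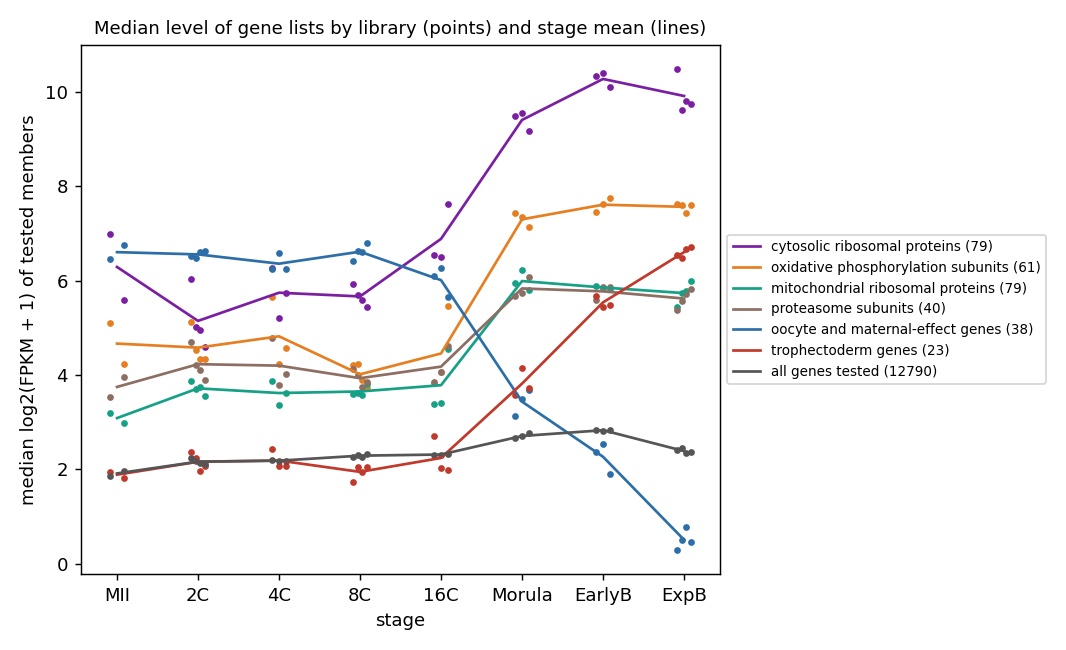
Median log2(FPKM + 1) of the tested members of 6 gene lists and of all tested genes in each of the 26 libraries (points), with lines through the stage means, from MII oocytes to expanded blastocysts. The oocyte list stood at 3.14 to 3.68 in morulae against 5.66 to 6.27 in 16C embryos, and the cytosolic ribosomal proteins at 9.18 to 9.56 against 6.50 to 7.63.

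Protein turnover followed, while the count for folding depended on the scaling and on single libraries. Of the proteasome subunits and assembly factors, 25 of 40 tested members (62.5%) rose and 0 fell, against 31.1% and 17.3% of all genes. Leaving out 16C 3, 30 rose and 0 fell. Their median was 1.64 with all libraries, or 1.21 relative to all genes. PSMC5, an ATPase of the regulatory particle, was at 101, 119 and 125 FPKM in morulae, against 1.99, 5.59 and 19.4 FPKM in 16C embryos, and PSMG2, an assembly chaperone, at 453, 316 and 450.3 in morulae, against 6.95, 21.0 and 84.99 in 16C embryos. Both were apart between the groups and rose by 3.97 ± 0.60 and 4.03 ± 0.72. PSMA1, a subunit of the core particle, was at 966, 731 and 517 FPKM in morulae, against 94.1, 132 and 925 FPKM in 16C embryos. It was not called, as 16C 3 lay within the range of the morulae, and it was called higher without that library. Of the chaperonin and cytosolic chaperone genes 13 of 30 tested members (43.3%) rose and 0 fell, beside the same shares of all genes. Without 16C 3, 15 rose and 2 fell. The median with all libraries was 1.06, or 0.63 relative to all genes. Under the other scalings 7 to 9 of the 30 rose and 4 fell, while 2665 to 3547 of all 12790 genes rose. When 1 library was left out 7 to 15 rose, with the lowest count without 16C 1, 16C 2 or Morula 2. In those 3 runs 3246, 3184 and 3356 of all genes rose. CCT4, a subunit of the cytosolic chaperonin, was at 138, 186 and 183 FPKM in morulae, against 34.0, 28.0 and 33.3 FPKM in 16C embryos, and HSPD1, the mitochondrial chaperonin, at 140.2, 159.9 and 144 in morulae, against 31.6, 29.9 and 35.9 in 16C embryos. These groups were tight and separate, with differences of 2.37 ± 0.29 (SE, limma adjusted p = 0.00058) and 2.16 ± 0.28.

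Translation factors and tRNA synthetases rose in part. Of the initiation and elongation factors 24 of 43 tested members (55.8%) rose and 2 (4.65%) fell, against 31.1% and 17.3% of all genes. The median was 1.44, or 1.01 relative to all genes. Without 16C 3, 27 rose and 2 fell, and under the other scalings 20 to 22 rose and 3 to 4 fell. EIF4G1, the scaffold of the cap-binding complex, was at 24.6, 28.4 and 37.2 FPKM in morulae, against 1.75, 2.05 and 5.37 FPKM in 16C embryos, and EIF3G at 162, 156 and 148 in morulae, against 17.3, 10.1 and 47.5 in 16C embryos. EIF4E, the cap-binding protein itself, was at 939, 616 and 902 in morulae, against 2219.7, 2119 and 2450 in 16C embryos. The groups did not overlap for any of them, and EIF4E was among the 2 that fell (-1.49 ± 0.30), while EIF4G1 and EIF3G rose (3.02 ± 0.40 and 2.87 ± 0.50). Of the aminoacyl-tRNA synthetases 13 of 23 tested members (56.5%) rose and 1 (4.35%) fell, beside the same shares of all genes. Their median was 1.42, or 0.99 relative to all genes. Leaving out 16C 3, 14 rose and 2 fell, and under the other scalings 12 to 13 rose and 1 to 3 fell. SARS1, which charges the tRNAs of serine, was at 52.5, 71.3 and 89.6 FPKM in morulae, against 12.0, 15.02 and 16.3 FPKM in 16C embryos. QARS1, the synthetase for glutamine, was at 25.2, 24.8 and 29.6 in morulae, against 1.43, 2.15 and 6.27 in 16C embryos. Both rose without overlap, by 2.20 ± 0.32 and 2.85 ± 0.43. EPRS1, the synthetase for glutamate and proline, fell by 1.33, with 22.2, 16.1 and 9.86 FPKM in morulae, against 44.0, 39.3 and 36.8 FPKM in 16C embryos.

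**Figure D4:**
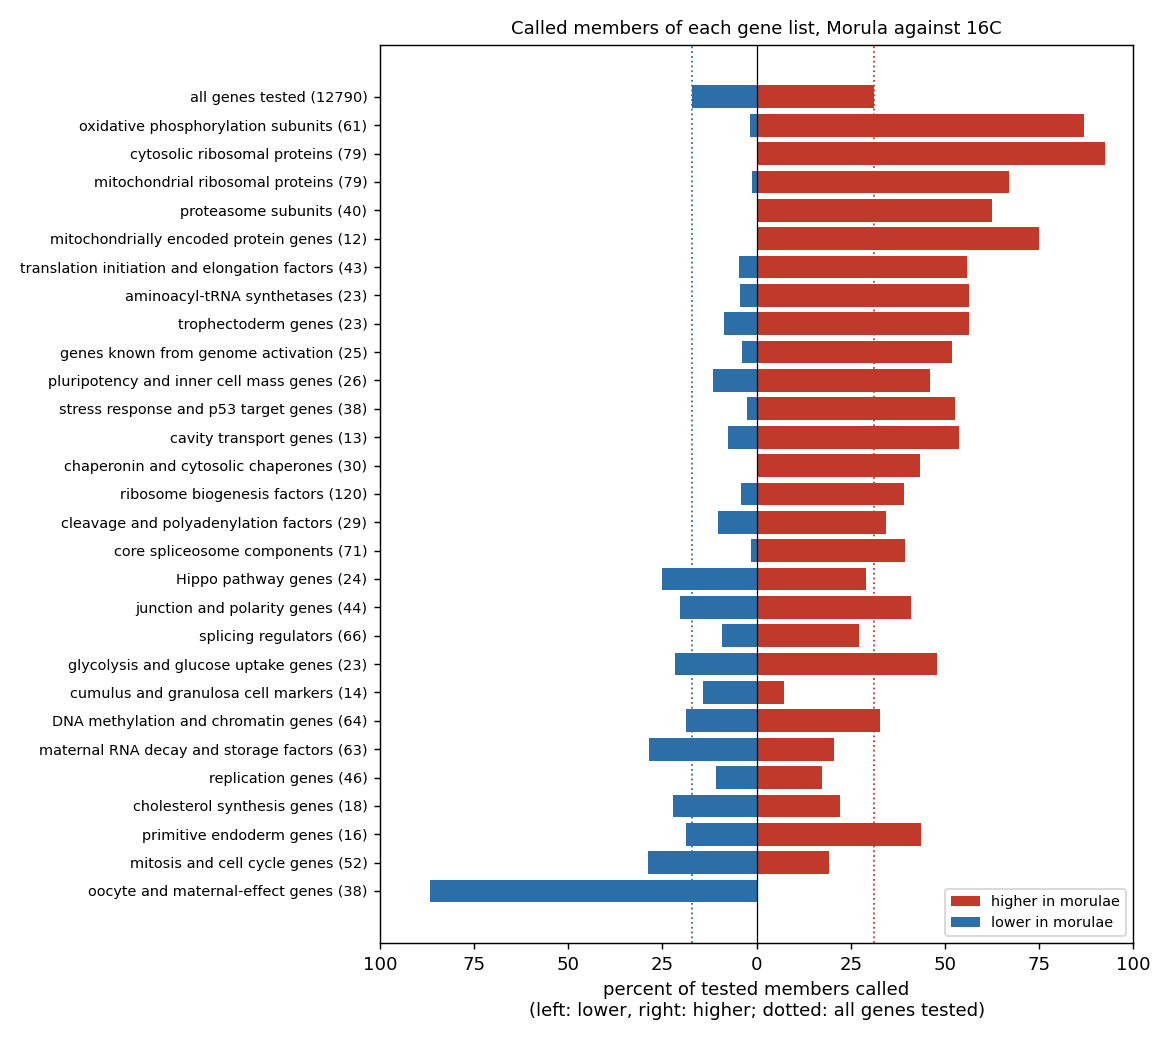
Percent of the tested members of each gene list that rose (red, right) or fell (blue, left) in morulae against 16C embryos, for lists with at least 10 tested members, ordered by median difference below a bar for all genes. Dotted lines mark the 31.1% and 17.3% of all tested genes, and the number tested stands beside each name. Ribosomal proteins reached 92.4% higher and oocyte genes 86.8% lower.

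Genes known from genome activation mostly rose where they were called. Of this list 13 of 25 tested members (52%) rose and 1 (4%) fell, against 31.1% and 17.3% of all genes. When 16C 3 was left out, 16 rose and 2 fell. With all libraries the median was 1.32, or 0.89 relative to all genes. KLF5, a Krueppel-like factor of the early lineages, was at 151, 77.3 and 76.4 FPKM in morulae, against 6.63, 9.53 and 15.4 FPKM in 16C embryos, and DUXB, a homeobox gene, at 6.80, 7.96 and 9.72 in morulae, while it is listed at 0 in all 3 16C libraries. KDM5B, a demethylase of histone H3, had 24.0, 37.4 and 52.7 in morulae, against 1.28, 1.42 and 4.79 in 16C embryos. The groups did not overlap, and the 3 rose by 3.15, 3.18 and 3.55. ZSCAN4, a zinc finger gene of early genome activation, fell by 1.42 with 56.5, 158 and 99.5 FPKM in morulae, against 219, 322 and 249 FPKM in 16C embryos (limma adjusted p = 0.017). That call was lost without 16C 2 (adjusted p = 0.0646), without Morula 1 (adjusted p = 0.0634) and in the fit over all 26 libraries (adjusted p = 0.0932), all in limma. ARGFX, a homeobox gene of the cleavage embryo, was at 1069, 537 and 598 FPKM in morulae, against 42.5, 88.9 and 1417 FPKM in 16C embryos, so that 16C 3 exceeded all morulae while 16C 1 and 16C 2 were far below them. It was not called (1.99 ± 1.07, limma adjusted p = 0.14), but was called higher without 16C 3. KLF17 was at 38.8, 60.02 and 83.3 FPKM in morulae, against 55.1, 70.4 and 50.1 FPKM in 16C embryos, with overlapping groups. GABPA, an ETS factor, was not called either, at 65.4, 70.7 and 88.2 in morulae, against 64.2, 108 and 168 in 16C embryos.

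In the pluripotency and inner cell mass list 12 of 26 tested members (46.2%) rose and 3 (11.5%) fell. Among all genes 31.1% rose and 17.3% fell. The list median was 1.15, or 0.72 relative to all genes. Without 16C 3, 13 rose and 3 fell, and under the other scalings 11 to 12 rose and 3 to 5 fell. POU5F1, a core pluripotency factor, was at 13.1, 13.7 and 21.8 FPKM in morulae, against 2.90, 1.55 and 3.32 FPKM in 16C embryos, and ESRRB, an orphan nuclear receptor of naive pluripotency, at 6.25, 6.74 and 9.36 in morulae, against 0, 0.0382 and 0.204 in 16C embryos. SPIC, an ETS factor, had 125, 80.8 and 38.7 in morulae, against 0.400, 0.561 and 5.11 in 16C embryos. Morulae were higher in every library, with differences of 2.26 ± 0.36 (SE, limma adjusted p = 0.0015), 2.95 ± 0.31 and 4.97 ± 0.63. NANOG was low at 2.90, 2.75 and 2.39 FPKM in morulae, against 0.601, 1.92 and 0.701 FPKM in 16C embryos and was not called (0.88 ± 0.34, limma adjusted p = 0.051), though its groups did not overlap. SOX2, at 0.457 or less in each of the 6 libraries, was not tested. LIFR, the receptor subunit for leukaemia inhibitory factor, and STAT3, the factor it activates, fell. LIFR had 2.26, 0.964 and 1.92 FPKM in morulae, against 11.6, 8.81 and 9.92 FPKM in 16C embryos, and STAT3 had 3.91, 3.84 and 6.20 in morulae, against 19.3, 15.9 and 19.8 in 16C embryos, with no overlap and differences of -2.06 ± 0.33 and -1.79 ± 0.32.

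The trophectoderm list held several large rises. Of the trophectoderm list 13 of 23 tested members (56.5%) rose and 2 (8.70%) fell, against 31.1% and 17.3% of all genes. Leaving out 16C 3, 14 rose and 3 fell. Its median was 1.36 with all libraries, or 0.94 relative to all genes. The list had 37 members in the table, and CDX2, EOMES, HAND1 and KRT19 were among those below the filter, CDX2 at 0.0358 or less. Of the keratin genes, 9 in the table, 4 were tested and 3 rose. KRT8, a keratin of simple epithelia, was at 52.96, 84.9 and 65.7 FPKM in morulae, against 1.51, 0 and 2.30 FPKM in 16C embryos. Its partner keratin KRT18 was at 8.51, 21.0 and 12.2 in morulae, against 0, 0 and 0.0221 in 16C embryos. DAB2, an endocytic adaptor, had 106, 124 and 62.8 in morulae, against 0.338, 1.42 and 7.48 in 16C embryos. PTGS2, the inducible prostaglandin synthase, which was also 1 of the cumulus cell markers, had 13.1, 25.6 and 38.7 FPKM in morulae, against 0.318, 0.0189 and 0 FPKM in 16C embryos. All of these were far above their 16C levels in every morula, with differences of 5.06 ± 0.47 (SE, limma adjusted p = 0.00028), 3.80 ± 0.37, 4.97 ± 0.62 and 4.48 ± 0.42. The means of these 4 genes in EarlyB were 1531, 581, 320.1 and 275 FPKM. GATA3, a transcription factor of the trophectoderm, was at 5.82, 3.94 and 3.15 FPKM in morulae, against 2.39, 3.08 and 2.85 FPKM in 16C embryos. TFAP2C, another, was at 27.8, 33.9 and 37.5 in morulae, against 12.8, 20.2 and 15.8 in 16C embryos. Neither was called, at 0.46 ± 0.33 and 0.99 ± 0.31, although all morulae lay above all 16C embryos in both. ID2, an inhibitor of helix-loop-helix factors, varied within both groups at 291, 718 and 149 in morulae, against 136, 349 and 116 in 16C embryos and was not called.

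The primitive endoderm list was divided: 7 of 16 tested members rose and 3 fell, 43.8% rising and 18.8% falling, against 31.1% and 17.3% of all genes (7 rose and 3 fell without 16C 3), with a median of -0.16 that was 0.14 without 16C 3, or -0.58 relative to all genes. Under the other scalings 4 to 6 rose and 4 to 6 fell. GATA6, the factor that sets this lineage, was at 20.9, 17.0 and 14.97 FPKM in morulae, against 1.37, 2.04 and 3.41 FPKM in 16C embryos, and LAMB1, a laminin chain of basement membranes, at 30.3, 31.5 and 47.9 in morulae, against 0.323, 1.86 and 1.36 in 16C embryos. They rose without overlap, by 2.54 ± 0.35 and 4.15 ± 0.39. Fibronectin, FN1, fell by 1.80, at 1.897, 2.38 and 3.42 FPKM in morulae, against 10.3, 12.5 and 11.2 FPKM in 16C embryos.

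Junction and polarity genes moved in both directions, often within 1 family. Of the list 18 of 44 tested members rose and 9 fell, 40.9% rising and 20.5% falling, against 31.1% and 17.3% of all genes (17 rose and 12 fell without 16C 3), with a median of 0.65 or 0.23 relative to all genes. CLDN6, a claudin of tight junctions, was at 92.9, 83.2 and 150.2 FPKM in morulae, against 1.43, 0.750 and 3.15 FPKM in 16C embryos. F11R, an adhesion molecule of the same junctions, was at 92.3, 89.5 and 60.9 in morulae, against 2.24, 1.37 and 14.5 in 16C embryos. CLDN4 had 4.95, 5.38 and 1.96 in morulae and was listed at 0 in all 16C libraries. The 3 rose by 5.35 ± 0.41, 4.03 ± 0.63 and 2.27 ± 0.36, with every morula above every 16C library. CLDN12, of the same family, fell by 1.74, at 12.4, 14.4 and 17.5 FPKM in morulae, against 70.1, 59.95 and 31.7 FPKM in 16C embryos. MARVELD2, the gene of tricellulin, fell by 1.92, at 6.52, 6.60 and 6.39 in morulae, against 42.0, 34.1 and 14.2 in 16C embryos. The gap junction gene GJC1 fell (-1.90 ± 0.42) at 7.21, 6.40 and 7.03 FPKM in morulae, against 46.7, 33.0 and 14.6 FPKM in 16C embryos, with no overlap. Among the cadherins CDH1, the E-cadherin of compaction, was at 30.9, 19.1 and 16.3 FPKM in morulae, against 2.95, 1.73 and 10.7 FPKM in 16C embryos, and CDH3, P-cadherin, at 2.90, 3.81 and 1.80 in morulae, against 31.7, 32.4 and 17.0 in 16C embryos. CDH1 rose by 2.15 ± 0.54 and CDH3 fell by 2.85, without overlap, and the call of CDH1 was lost without Morula 1 (limma adjusted p = 0.0502). The small GTPase RHOA was not called at 254, 245 and 272 FPKM in morulae, against 406, 489.6 and 484 FPKM in 16C embryos, nor was CDC42 at 163, 174 and 169.8 in morulae, against 118, 77.2 and 139 in 16C embryos. All morulae nevertheless lay below all 16C libraries for RHOA and above them for CDC42.

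The Hippo pathway relays cell position to gene expression, and in its list 7 of 24 tested members rose and 6 fell, 29.2% rising and 25% falling, against 31.1% and 17.3% of all genes (7 rose and 6 fell without 16C 3), with a median of 0.78 or 0.35 relative to all genes. TEAD4, the DNA-binding factor of the trophectoderm, was at 6.08, 7.87 and 7.60 FPKM in morulae, against 0, 0 and 1.10 FPKM in 16C embryos, and WWTR1, a coactivator of TEAD factors, at 43.6, 33.4 and 58.0 in morulae, against 0.130, 1.78 and 13.7 in 16C embryos. AMOTL2, which binds these coactivators, had 9.40, 12.8 and 9.71 in morulae and was listed at 0 in all 16C libraries. All rose without overlap, by 2.67 ± 0.38, 3.64 ± 0.79 and 3.53 ± 0.30. YAP1, the coactivator related to WWTR1, fell by 1.28 at 15.5, 14.5 and 13.4 FPKM in morulae, against 44.5, 40.3 and 26.8 FPKM in 16C embryos, and STK4, a kinase of the pathway, by 2.80 at 7.08, 9.53 and 9.69 in morulae, against 92.0, 97.9 and 32.6 in 16C embryos. Both had separate groups with 16C 3 nearest to the morulae.

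Transport genes of cavity formation included 7 risen (53.8%) and 1 fallen (7.69%) of 13 tested, against 31.1% and 17.3% of all genes. Without 16C 3, 6 rose and 1 fell. When 1 library was left out 3 to 6 rose, with 3 without Morula 1 and 4 without 16C 1 or 16C 2. The aquaglyceroporin AQP3 was at 6.66, 7.09 and 4.67 FPKM in morulae, against 0.0653, 0 and 0.471 FPKM in 16C embryos, and FXYD4, a regulator of the sodium pump, at 14.8, 10.9 and 11.7 in morulae, against 0, 0 and 2.88 in 16C embryos. ATP1B3, a beta subunit of the pump, had 154, 112 and 126 in morulae, against 18.1, 23.9 and 61.0 in 16C embryos. These rose by 2.60 ± 0.32, 3.09 ± 0.53 and 2.07 ± 0.44, with no overlap. ATP1B1, another beta subunit, was not called at 6.55, 3.60 and 5.80 FPKM in morulae, against 7.26, 6.54 and 5.02 FPKM in 16C embryos, and its groups overlapped. CFTR, the chloride channel, fell by 2.17, at 3.01, 3.99 and 3.15 FPKM in morulae, against 17.9, 19.1 and 18.8 FPKM in 16C embryos.

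**Figure D5:**
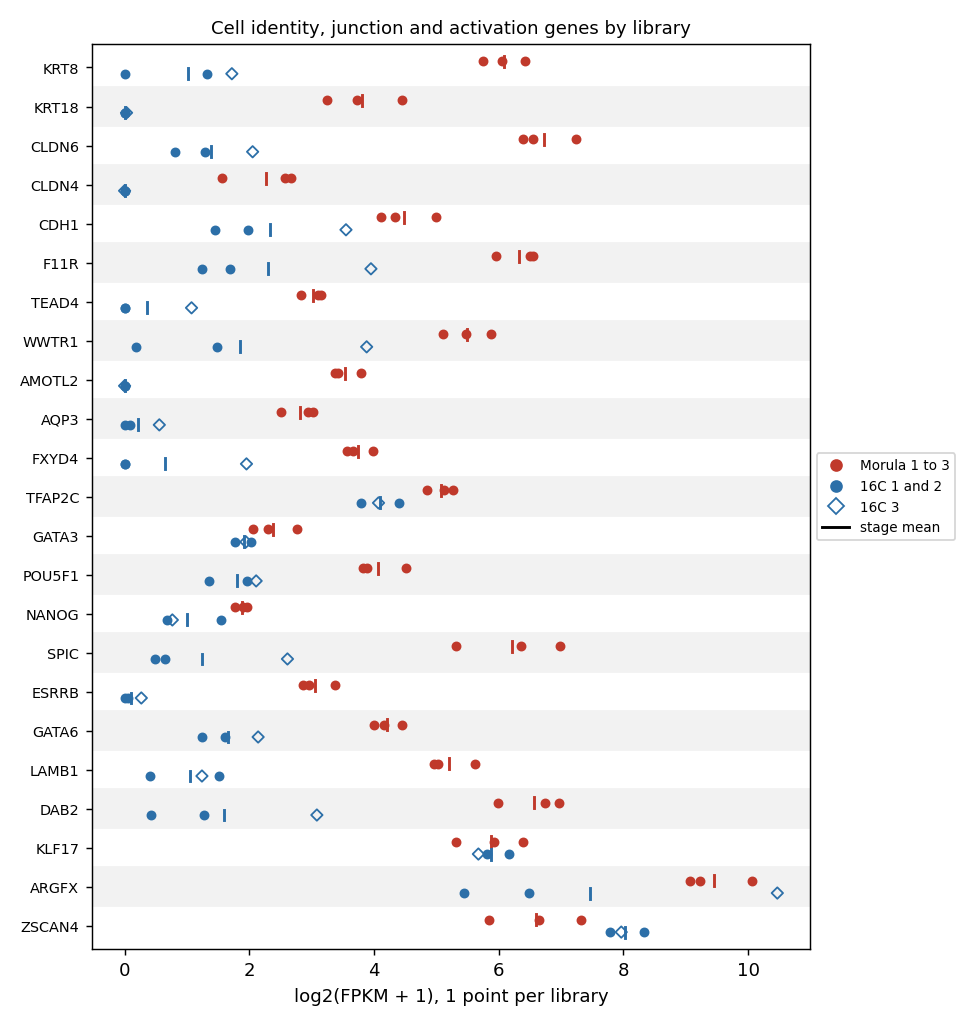
Levels of 23 genes of epithelial identity, junctions, Hippo signalling, transport, pluripotency, primitive endoderm and genome activation in each library, as log2(FPKM + 1), with 3 morulae (red), 16C 1 and 16C 2 (filled blue), 16C 3 (open diamonds) and stage means (bars). The groups are apart for most genes, KLF17 and ARGFX overlap, and ZSCAN4 is lower in morulae.

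Cell cycle genes moved in both directions. Of the replication genes 8 of 46 tested members rose and 5 fell, 17.4% rising and 10.9% falling, against 31.1% and 17.3% of all genes (13 rose and 9 fell without 16C 3), with a median of 0.07 that was negative under all 4 other scalings, or -0.36 relative to all genes. Under the other scalings 8 rose and 9 to 11 fell. The DNA ligase LIG1 was at 1.82, 4.64 and 1.40 FPKM in morulae, against 19.2, 18.8 and 25.1 FPKM in 16C embryos, and CDC6, which loads the replicative helicase, at 22.5, 23.0 and 30.0 in morulae, against 134, 87.4 and 82.2 in 16C embryos. RRM2, a subunit of ribonucleotide reductase, had 30.1, 30.2 and 27.8 in morulae, against 5.95, 4.41 and 12.8 in 16C embryos. Groups were separate for the 3, with falls for LIG1 (-2.70 ± 0.39) and CDC6 (-1.94 ± 0.32) and a rise for RRM2 (1.92 ± 0.39). PCNA, the sliding clamp, overlapped at 522, 912 and 329.8 FPKM in morulae, against 419, 744 and 1187 FPKM in 16C embryos and was not called. Of the mitosis and cell cycle genes 15 of 52 tested members fell and 10 rose (10 rose and 17 fell without 16C 3), or 28.8% falling and 19.2% rising, against 17.3% and 31.1% of all genes. The median was -0.36 or -0.79 relative to all genes, this relative median was -1.06 without 16C 3, and 5 rose under quantile normalization. FBXO43, an inhibitor of the anaphase-promoting complex in oocytes, was at 15.8, 12.8 and 18.6 FPKM in morulae, against 165, 147 and 69.5 FPKM in 16C embryos and fell by 2.86. Cyclin D1, CCND1, had 4.62, 3.78 and 8.63 in morulae, against 0.287, 0.706 and 0.816 in 16C embryos and rose by 2.01. Cyclin B1, CCNB1, was not called at 278, 310.0 and 164 FPKM in morulae, against 369, 474 and 453 FPKM in 16C embryos, with all morulae below all 16C embryos.

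Glycolytic genes moved in both directions. In the list 11 of 23 tested members rose and 5 fell, 47.8% rising and 21.7% falling, against 31.1% and 17.3% of all genes (11 rose and 5 fell without 16C 3), with a median of 0.56 or 0.13 relative to all genes. LDHA, a subunit of lactate dehydrogenase, was at 50.8, 48.0 and 44.9 FPKM in morulae, against 379, 493 and 331 FPKM in 16C embryos, and GAPDH, a dehydrogenase of the middle of the pathway, at 24.0, 31.5 and 36.9 in morulae, against 106, 147 and 80.0 in 16C embryos. PGK1, the kinase of the next step, had 365, 216 and 397 in morulae, against 14.9, 19.8 and 65.0 in 16C embryos, and HK2, which starts the pathway, had 85.9, 76.2 and 95.5 FPKM in morulae, against 3.74, 8.64 and 22.8 FPKM in 16C embryos. None of the 4 overlapped between groups: LDHA and GAPDH fell (-3.02 ± 0.29 and -1.79 ± 0.34), while PGK1 and HK2 rose (3.50 ± 0.53 and 3.07 ± 0.53). GAPDH was 1 of the 8 fallen genes that rose in EarlyB against 8C, with a mean of 498 in EarlyB against 108 in 8C. LDHB was not called at 91.5, 112 and 106 FPKM in morulae, against 164, 173 and 134 FPKM in 16C embryos, although all morulae lay below all 16C libraries. In cholesterol synthesis 4 of 18 tested members rose and 4 fell, each 22.2%, against 31.1% and 17.3% of all genes, with a median of 0.01 that was negative under all 4 other scalings, and 1 to 3 rose and 5 to 6 fell under those scalings, with 2 rising without 16C 3 or Morula 2. HMGCS1, the enzyme that makes HMG-CoA, fell by 3.37 at 2.80, 1.43 and 2.62 FPKM in morulae, against 35.4, 19.6 and 48.2 FPKM in 16C embryos, and MSMO1, a sterol oxidase, fell by 1.46 at 81.9, 70.5 and 76.0 in morulae, against 172, 179 and 305 in 16C embryos.

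Stress response and p53 target genes moved mostly upwards. Of 38 tested members 20 (52.6%) rose and 1 (2.63%) fell, against 31.1% and 17.3% of all genes. The median was 1.09, or 0.66 relative to all genes. Without 16C 3, 18 rose and 1 fell, and 13 rose under quantile normalization. PHLDA3, a p53 target that restrains AKT, was at 15.01, 13.4 and 25.9 FPKM in morulae, against 0.0445, 0.0189 and 0.0119 FPKM in 16C embryos. CDKN1A, the p53-induced inhibitor of cyclin-dependent kinases, had 36.6, 37.4 and 21.6 in morulae, against 0.712, 5.11 and 4.75 in 16C embryos, and ASNS, the asparagine synthetase of the amino acid response, had 79.9, 127 and 54.4 in morulae, against 1.77, 5.47 and 12.1 in 16C embryos. The groups were separate, and the differences were 4.16 ± 0.34 (SE, limma adjusted p = 0.00023), 3.03 ± 0.52 and 3.75 ± 0.56. SESN3, a sestrin, was the 1 member that fell, by 1.86.

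Factors that process mRNA had shares of risen genes near or little above that of all genes. Of the core spliceosome components 28 of 71 tested members rose and 1 fell, 39.4% rising and 1.41% falling, against 31.1% and 17.3% of all genes (35 rose and 2 fell without 16C 3), with a median of 0.87 or 0.44 relative to all genes, and under the other scalings 19 to 22 rose and 3 to 5 fell. SNRNP25, of the minor spliceosome, was at 165, 217 and 238 FPKM in morulae, against 23.8, 34.5 and 74.2 FPKM in 16C embryos, and LSM3, of the ring that binds U6 RNA, at 1596, 1306 and 1923 in morulae, against 247, 177 and 843 in 16C embryos. Both rose without overlap (2.35 ± 0.43 and 2.25 ± 0.54). SNRPE, an Sm protein, was at 1059, 1101 and 1048 FPKM in morulae, against 234, 262 and 1094 FPKM in 16C embryos. It was not called, as 16C 3 lay within the range of the morulae, and was called higher without that library. Of the splicing regulators 18 of 66 tested members rose and 6 fell, 27.3% rising and 9.09% falling, against 31.1% and 17.3% of all genes (19 rose and 9 fell without 16C 3), with a median of 0.62 or 0.19 relative to all genes. ESRP2, an epithelial splicing regulator, was at 13.1, 15.7 and 18.0 FPKM in morulae, against 0.0127, 0.0288 and 1.56 FPKM in 16C embryos, and HNRNPAB at 158, 151 and 183 in morulae, against 27.5, 39.4 and 60.6 in 16C embryos. SRPK2, a kinase of SR proteins, had 7.43, 7.05 and 7.16 in morulae, against 31.2, 28.5 and 15.1 in 16C embryos. The first 2 rose (3.57 ± 0.42 and 1.99 ± 0.35) and SRPK2 fell (-1.59 ± 0.35), all with separate groups. Of the cleavage and polyadenylation factors 10 of 29 tested members rose and 3 fell, 34.5% rising and 10.3% falling, against 31.1% and 17.3% of all genes (13 rose and 4 fell without 16C 3), with a median of 0.88 or 0.46 relative to all genes, but under the other scalings 5 to 6 rose and 3 to 4 fell, and 6 rose without 16C 1, 16C 2, Morula 1 or Morula 3. CSTF1, a subunit of the cleavage stimulation factor, fell by 2.40 at 90.9, 82.4 and 98.7 FPKM in morulae, against 388, 457 and 625 FPKM in 16C embryos, and PCF11, a factor of cleavage and termination, rose by 1.96 at 35.2, 45.9 and 52.2 in morulae, against 10.1, 9.05 and 12.7 in 16C embryos.

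Genes of small nuclear and nucleolar RNAs were called higher more often than the average gene. Of 194 annotated snoRNA genes tested, 128 rose (66.0%) and 1 fell, and of 92 snRNA genes 53 rose (57.6%) and 0 fell, against 29.8% rising and 18.1% falling among 10923 protein-coding genes. These RNAs mostly lack poly(A) tails, many lie within introns of other genes, and at their short length an FPKM of 1 stands for few reads. Which transcripts these reads came from was not tested. Of 617 lncRNA genes 207 rose (33.5%) and 124 fell (20.1%).

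Chromatin regulators as a list were close to all genes, with single members called in both directions. Of the list 21 of 64 tested members rose and 12 fell, 32.8% rising and 18.8% falling, against 31.1% and 17.3% of all genes (22 rose and 13 fell without 16C 3), with a median of 0.27 or -0.16 relative to all genes. DNMT1, the maintenance DNA methyltransferase, was at 12.3, 9.05 and 18.0 FPKM in morulae, against 139.5, 126 and 249 FPKM in 16C embryos, and DNMT3A, a de novo methyltransferase, at 75.01, 72.2 and 53.4 in morulae, against 12.8, 14.2 and 8.21 in 16C embryos. TET1, which oxidises methylcytosine, had 59.7, 67.4 and 44.3 in morulae, against 4.56, 5.82 and 14.2 in 16C embryos. The groups were separate in each case, and 16C 3 was the highest 16C library for DNMT1 and TET1. DNMT1 fell (-3.59 ± 0.38), while DNMT3A and TET1 rose (2.43 ± 0.33 and 2.78 ± 0.42). The histone deacetylase HDAC1 rose by 2.92 at 57.9, 67.3 and 87.3 FPKM in morulae, against 4.23, 5.15 and 24.2 FPKM in 16C embryos. KDM1B, a demethylase of oocytes, fell by 2.88 at 2.42, 2.94 and 3.08 in morulae, against 33.2, 28.7 and 20.6 in 16C embryos, and RNF2, a ubiquitin ligase of Polycomb complexes, by 2.74 at 95.4, 58.5 and 87.1 FPKM in morulae, against 632, 618 and 380.5 FPKM in 16C embryos.

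The position of 16C 3 between the stages differed from list to list. For each library, its distance from the mean of the rest of its own stage was set against the distance between the stage means, over genes called without that library. The median was 32.7% of the way towards the morulae for 16C 3 (6954 genes), -10.4% for 16C 1 and -4.1% for 16C 2, while the morulae lay 1.5% to 8.8% of the way towards the 16C embryos. Among the lists, 16C 3 lay 61.2% of the way for chaperones (17 genes), 55.0% for mitochondrial ribosomal proteins (61), 52.7% for proteasome subunits (30), 44.4% for ribosome biogenesis factors (67) and 41.7% for cytosolic ribosomal proteins (75). For cavity transport genes (7) it was 52.25%, for replication genes (22) 48.5%, for genome activation genes (18) 36.7% and for Hippo genes (13) 35.5%. It lay 26.9% of the way for oocyte genes (33), 20.6% for pluripotency genes (16), 9.7% for mitochondrially encoded genes (9) and 4.0% for trophectoderm genes (17). Genes within a list varied widely. The quartiles were 33.6% and 82.6% for chaperones, 10.8% and 34.3% for oocyte genes, and -4.8% and 34.6% for trophectoderm genes. These are descriptions with no test, and what set 16C 3 apart was not tested.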

How the data were processed

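The deposited table gives 1 FPKM value per gene and library, and FPKM was computed by the authors from fragments counted per gene. The tools, per the submitters' processing notes, included featureCounts 2.0.1, HISAT2 2.1.0, fastp 0.23.4 and SAMtools 1.9, with no roles given. Neither build nor annotation of the genome is given in the sources used here. The values carry no further scaling to a common sum. Reads counted on genes were estimated from the steps between low values of small RNA genes, where 99.7% or more of the values were whole reads within 0.05.

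Stages were taken from the labels. Values were transformed to log2(FPKM + 1) and tested in limma 3.58.1 (R 4.3.3), with a mean-dependent prior on the spread, over the 6 libraries of the Morula and 16C groups, which leaves 4 residual degrees of freedom. A gene had to reach an FPKM of 1 in 2 of these libraries or more. P-values were adjusted by Benjamini and Hochberg over all 12790 genes. EarlyB was tested against 8C on the same genes, and each other step with its own filter. The script was tested on simulated data. Totals per library were compared with an exact permutation test in R. Depth was estimated in Python 3.11.15 (NumPy 2.4.6, pandas 2.3.3), and figures were drawn with Matplotlib 3.10.9. The alternatives were other scalings, pseudocounts, filters and library sets, a replicate block, and leaving out each library in turn.

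The members and the gene lists were chosen with earlier results of these data known, so list counts are descriptions and carry no test. The genes named were the 15 largest differences in each direction among called genes without overlap and with a mean FPKM of at least 20 at the higher stage, up to 4 called members of each list in each direction, up to 2 uncalled members by level, and a list of key stage genes, from which the text takes a selection. Some named genes are not reported here.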

Additional observations from a re-analysis of the deposited data

How the results depend on the processing

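With Morula against 16C, the numbers of genes higher and lower stayed within 1.5 times those reported under every alternative run: 4391 and 2364 with all 26 libraries in the fit, 4074 and 2307 with a pseudocount of 0.1, 4298 and 2446 with no minimum difference, 3092 and 1769 with no filter, 3705 and 2141 with a filter of 3 libraries, and 3184 to 4340 and 1706 to 2614 when 1 library was left out. The share of rising genes among those called moved by more than 10 percentage points after rescaling to a sum of 1e6 and with quantile normalization. EarlyB against 8C had 4681 to 4794 genes higher and 3294 to 3358 lower with 1 library left out. The difference in genes detected was 2856 at an FPKM of at least 0.1, 873 at 5 and 1532 on the TPM scale, and 1713.5 to 1827.7 with 1 library left out. The mitochondrial share differed by 3.67 to 4.65 percentage points with 1 library left out. With the replicate number as a block, 4044 genes were higher and 2180 lower, but nothing in the labels or the data pairs the libraries. Of the named genes that were called, the number no longer called was 15 without Morula 1, 12 with no filter, 11 without 16C 2 and 9 with quantile normalization. None of the called ones reversed. Among the uncalled genes, CYTB was at -0.044 under quantile normalization, KLF17 between -0.26 without Morula 3 and 0.28 without Morula 1, ODF2 between -0.33 without 16C 3 and 0.044 without 16C 1, and NPM1 between -0.16 without Morula 2 and 0.090 without Morula 3. The cause was not tested. Depth ran from 25.9 to 34.4 in units of 1e6 reads, and with 3 libraries a stage a difference within their spread was not detectable.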

Other observations

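A few genes moved in opposite directions between the comparisons that share no library. They were chosen after their values were seen. Of the genes that rose in morulae against 16C embryos, 4 fell in EarlyB against 8C, and 3 of them have a symbol. QPCT, an enzyme that cyclises N-terminal glutamine, had 16.9, 37.9 and 10.1 FPKM in morulae, against 0.830, 2.49 and 6.76 FPKM in 16C embryos, a difference of 2.43 ± 0.60, while its EarlyB minus 8C difference was -1.16. CHN2, a GTPase-activating protein for Rac, had 15.9, 7.73 and 7.81 in morulae, against 3.46, 2.94 and 3.20 in 16C embryos, with differences of 1.38 ± 0.36 and, in EarlyB against 8C, -1.64. NBDY, a small protein of the mRNA decapping complex, had 59.2, 51.0 and 65.0 in morulae, against 26.2, 19.3 and 39.9 in 16C embryos, with differences of 1.06 ± 0.34 and -1.22. Its rise was just above the size needed for a call, on a scale where the median of all tested genes was 0.43. No morula overlapped with a 16C library for these 3 genes.

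Of the genes that fell in morulae, 8 rose in EarlyB against 8C, among them GAPDH. GM2A, the activator protein of ganglioside breakdown, had 26.6, 24.9 and 32.8 FPKM in morulae, against 61.8, 51.5 and 65.8 FPKM in 16C embryos, a difference of -1.06 ± 0.29 that is -0.99 without 16C 3 and then below the size needed for a call. Its EarlyB minus 8C difference was 4.66. ZCCHC10, a zinc finger gene, had 42.1, 65.5 and 50.5 in morulae, against 131, 232 and 337 in 16C embryos, with differences of -2.05 ± 0.39 and, in EarlyB against 8C, 1.37. RNF11, a RING finger gene, had 74.0, 107 and 83.6 in morulae, against 149, 258 and 155 in 16C embryos, with differences of -1.05 ± 0.33, just past the size needed for a call, and 2.41. All morulae lay below all 16C libraries for each.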
